A study of Arabidopsis thaliana with 54 samples.

Results

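The genes described here are 41 nuclear genes for the light-harvesting antenna and for photosystems I and II of the chloroplast, measured in Arabidopsis thaliana roots. They were taken by gene identifier from the 34262 genes of the count tables, and all 41 were found: 18 antenna genes (4 LHCA genes of the photosystem I antenna, or LHCI, and 14 LHCB genes of the photosystem II antenna, or LHCII), 12 photosystem I genes and 11 photosystem II genes. The libraries come from 5-day-old Col-0 seedlings moved to plates with 100 nM CIF2 or without peptide, whose shoots were cut off and whose whole roots were taken after 30, 120 or 480 min. CIF2 (CASPARIAN STRIP INTEGRITY FACTOR 2) is a peptide made in the stele that binds the receptor kinase SGN3 in the endodermis and drives the closure of the Casparian strip. Each condition was measured in the wild type (WT), in the double mutant cif1-2 cif2-2 (written cif1 cif2), whose peptide genes were altered with CRISPR-Cas9, and in the receptor mutant sgn3-3 (written sgn3), a T-DNA insertion line. These lines, treatments and times make 18 groups of 3 libraries, 54 in all, with 1 library of each group in each of 3 batches. No label says that the batches were separate cultures, so P values measure the spread between these libraries.

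Light-harvesting proteins bind chlorophyll and pass the energy of absorbed light to the reaction centres. LHCA proteins sit on photosystem I. Of the LHCB proteins of photosystem II, LHCB1, LHCB2 and LHCB3 build the LHCII trimers, and LHCB4, LHCB5 and LHCB6 (CP29, CP26 and CP24) link the trimers to the core. The PSA and PSB genes of the nucleus encode smaller subunits of photosystems I and II, while the reaction centre proteins are encoded in the chloroplast genome. In leaves these nuclear genes are strongly expressed under the control of light, the circadian clock and the GLK transcription factors. In roots, where most plastids are not green, they are expressed at low levels.

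Depth was 21328819 to 38588050 counts on genes per library (median 28866174). Levels are given as CPM, the counts of a gene relative to the library's total after scaling by the trimmed mean of M-values. The SGN3 gene (AT4G20140) lay at 19.9 to 46.5 CPM in the libraries of sgn3 and at 105 to 290 CPM in WT. All 3 libraries titled cif1 cif2 with CIF2 for 480 min carry a treatment label of no peptide. They were taken as titled, and the CIF2 values of cif1 cif2 at 480 min rest on them. Of 12 markers of leaf, stomata and shoot epidermis, 10 were too low to be tested, and YAB5 and MUTE had no count in any of the 54 libraries. CER1 and PDF1, which were tested, averaged 6.68 and 3.88 CPM. MYB60 and TMM were too low to be tested but had counts in every library. In bulk roots, fewer green cells and less RNA per cell cannot be told apart.

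The 5 LHCB1 genes encode nearly the same protein, and a read can fit more than one of them. The start of each coding sequence is shown because these bases tell the genes apart. They come from the RefSeq annotation of the TAIR10.1 assembly, as do the positions given below, since the count files hold no coordinates. Capitals mark bases that differ from LHCB1.3 at the same place.

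LHCB1.1: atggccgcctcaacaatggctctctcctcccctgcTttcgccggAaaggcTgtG
LHCB1.2: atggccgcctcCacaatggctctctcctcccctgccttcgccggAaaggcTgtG
LHCB1.3: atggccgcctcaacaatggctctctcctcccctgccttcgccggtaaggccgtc
LHCB1.4: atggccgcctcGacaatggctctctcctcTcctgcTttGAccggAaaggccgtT
LHCB1.5: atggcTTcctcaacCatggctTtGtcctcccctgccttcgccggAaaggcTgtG

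Over the whole coding sequence, identity to LHCB1.3 was 96.1% for LHCB1.1, 96.4% for LHCB1.2, 86.8% for LHCB1.4 and 89.3% for LHCB1.5. LHCB1.1, LHCB1.2 and LHCB1.3 (AT1G29920, AT1G29910 and AT1G29930) lie close together on chromosome 1, and LHCB1.4 and LHCB1.5 (AT2G34430 and AT2G34420) on chromosome 2. Of the 50-base windows of the LHCB1 transcripts, 10.6% to 20.5% occur elsewhere in the genome, as do 23.5% for LHCB2.1, 29.5% for LHCB2.2 and 11.4% for LHCA2, so the split of reads among these genes is uncertain. With the LHCB1 genes summed to 1 row, the change with CIF2 at 480 min in WT was -1.41 on the log2 scale, against -1.35 for LHCB1.5 alone. LHCB1.5 held most of that sum, at 50.6 CPM on average with LHCB1.3 next at 5.38 CPM, so the sum mostly follows LHCB1.5. Alignments that were not unique, 3.6% to 3.97% of the counts per library, named no gene and were left out. The sum does not recover them and does not settle the split. A gene on the other strand, AT2G08665, covers all 1045 bases of LHCB1.5 and had 0 to 3 counts per library where LHCB1.5 had 259 to 3130.

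Photosystem and antenna transcripts were present in every root library, and the 41 genes together reached 206 to 537 CPM. Per kilobase of exon, PSBR (AT1G79040, a small subunit of photosystem II) was the highest, at 76.6 mean CPM per kb over the 54 libraries. LHCB1.5 followed at 48.4, LHCA4 (AT3G47470) at 23.6, PSBO1 (AT5G66570, of the oxygen-evolving complex) at 21.2 and PSBX (AT2G06520) at 20.3 mean CPM per kb. The libraries spread widely around these means, from 22.6 to 91.2 CPM for PSBR and from 9.04 to 89.4 CPM for LHCB1.5 before division by length, so neighbours in this order overlap. At the other end, LHCB1.4 and PSAH2 never reached 1 CPM.

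In some gene families a single copy held most of the reads. LHCB1.5 averaged 50.6 CPM and LHCB1.3 5.38 CPM, while LHCB1.2, LHCB1.1 and LHCB1.4 averaged 0.239, 0.133 and 0.0321 CPM. Per kb these levels keep the same order, with LHCB1.5 at 48.4 and LHCB1.3 at 4.37. Of the LHCB2 genes, LHCB2.3 (AT3G27690) stood at 0.798 CPM per kb and LHCB2.1 and LHCB2.2 at 0.235 and 0.0402 CPM per kb. PSAD1 (AT4G02770) stood at 9.37 and PSAD2 (AT1G03130) at 0.729 CPM per kb. In others the copies were closer, with PSBQ1 and PSBQ2 at 4.6 and 3.24 and PSAE2 and PSAE1 at 5.48 and 2.72 CPM per kb.

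LHCB1.4 and PSAH2 were left out of the tests, so 39 of the 41 genes were tested, among 19668 genes in all. A gene passed when its adjusted P in edgeR's quasi-likelihood test (Benjamini-Hochberg over all genes tested, with batch in the model) was at most 0.05. Fold changes are log2 values of the first named condition over the second, ± gives their standard error, and all groups have n = 3. Values of single libraries are given in the order of batches 1, 2 and 3.

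What CIF2 did to these genes in WT roots was asked first, against roots moved to plates without peptide for the same time. At 30 min only LHCB1.5 passed, and it was lower. At 120 min 17 genes were lower and at 480 min 23, and none was higher at any of the times. All 17 genes of 120 min were among the 23 of 480 min. Over all genes, 2.01%, 4.28% and 3.23% were called lower at 30, 120 and 480 min, against 2.56%, 43.6% and 59% of the 39 genes. In the other direction, 5.78%, 6.3% and 6.88% of all genes were called higher. The median log2 fold change of the 39 genes was -0.06, -0.43 and -0.56, beside -0.0026, -0.0027 and -0.014 over all genes. At 480 min 7 of the 39 genes were at least 2-fold lower, as were 0.361% of all genes. At 120 min none was, beside 0.234% of all genes.

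**Figure D1:**
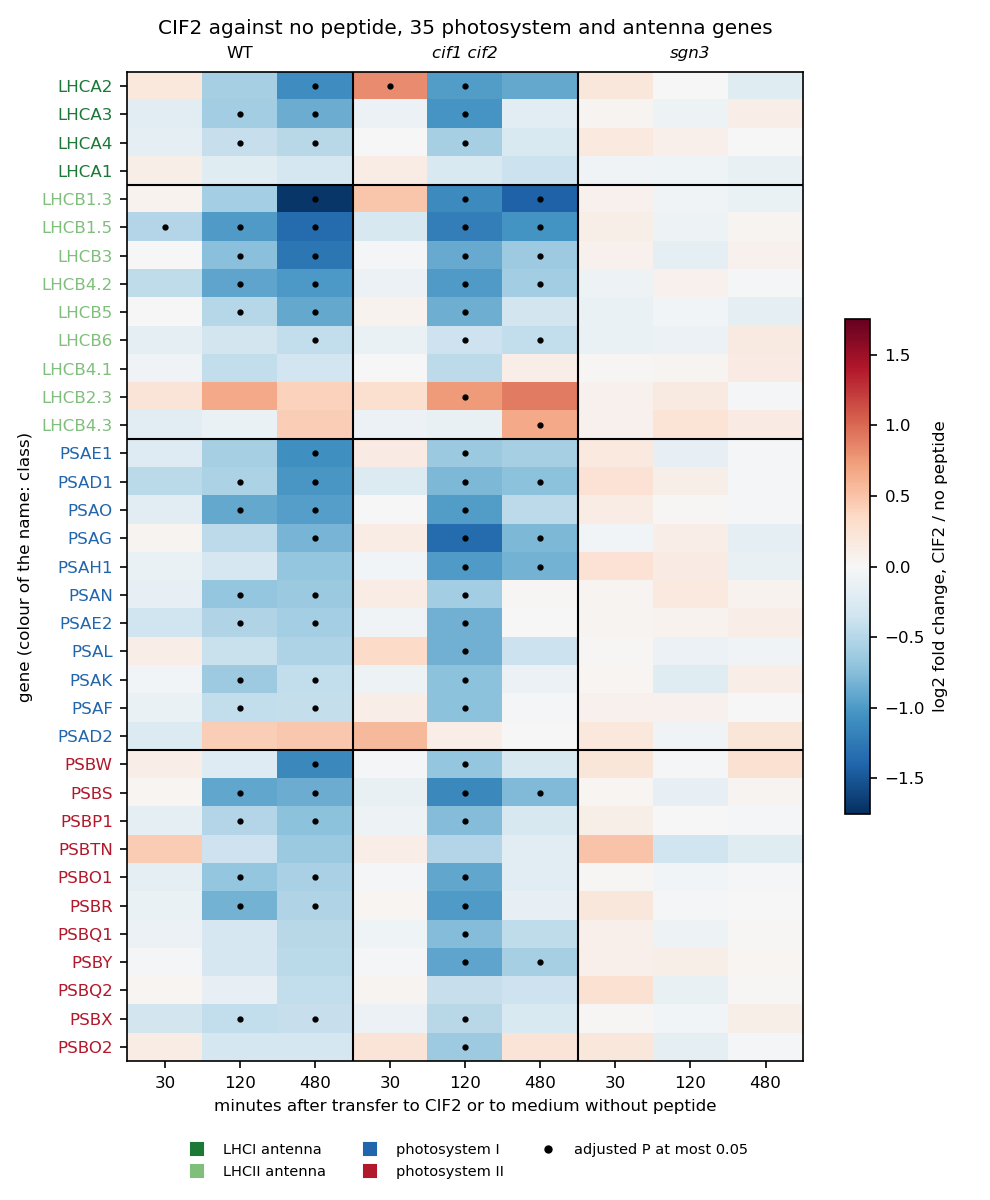
Log2 fold change of CIF2 over no peptide (colour) for 35 genes (rows, by class) at 30, 120 and 480 min (columns) in WT, cif1 cif2 and sgn3; a dot marks an adjusted P of at most 0.05 in edgeR, and LHCB1.1, LHCB1.2, LHCB2.1 and LHCB2.2, with few reads, are not drawn. WT and cif1 cif2 are mostly blue at 120 and 480 min, LHCB2.3 is red there, and sgn3 has no dot.

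Genes of every class fell in WT. Of the antenna genes, 6 of 17 tested fell at 120 min and 9 at 480 min. Of the photosystem I genes, 6 and 8 of 11 tested fell, and of the photosystem II genes, 5 and 6 of 11. The median log2 fold changes at 480 min were -0.68 for LHCI, -0.44 for LHCII, -0.65 for photosystem I and -0.53 for photosystem II. The classes were not tested against each other.

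The largest falls were those of LHCII genes. LHCB1.5 (chromosome 2, 14522524 to 14523568, minus strand, 1 exon), the highest antenna gene of these roots, stood at 29.9, 19.9 and 38.1 CPM in untreated WT at 480 min and at 11.9, 9.04 and 13.3 CPM with CIF2. The lowest untreated library lay above the highest treated one, and the log2 fold change was -1.35 ± 0.17 (adjusted P = 8.93e-08, edgeR). At 120 min it stood at 72.3, 56.7 and 81.5 CPM without and 32.1, 29.8 and 44.3 CPM with CIF2 (-0.99 ± 0.16). At 30 min the values were 79.1, 67.9 and 77.4 CPM without and 54.6, 46.4 and 56.7 CPM with CIF2 (-0.51 ± 0.15). LHCB1.5 was thus lower with CIF2 at each time in WT, and at none of them did the groups overlap. The call at 30 min was lost without batch 1 (-0.49, adjusted P = 0.19, edgeR), without batch 2 (-0.49, adjusted P = 0.267) and without batch in the model (-0.51, adjusted P = 0.271), the alternatives ranging from 0.000307 to 0.271 in adjusted P.

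LHCB1.3 (chromosome 1, 10477885 to 10479114, plus strand, 1 exon) had the largest fall of the 39 genes at 480 min in WT. Its level was 7.33, 6.54 and 8.62 CPM without peptide and 2.14, 2.34 and 2.39 CPM with CIF2 (-1.7 ± 0.27). The treated libraries lay close together and well below the untreated ones. At 120 min its change of -0.59 ± 0.26 did not pass. LHCB3 (AT5G54270), the third kind of LHCII trimer subunit, stood at 6.29, 4.93 and 6.84 CPM without and 2.53, 2.23 and 2.71 CPM with CIF2 at 480 min (-1.27 ± 0.17), again with no overlap, and had fallen by 0.73 on the log2 scale at 120 min. Of the linker antenna proteins, LHCB4.2 (-1.0 ± 0.19), LHCB5 (-0.90 ± 0.15) and LHCB6 (-0.44 ± 0.13) fell at 480 min, and LHCB4.1 at -0.34 ± 0.16 did not pass.

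Of the LHCI genes, LHCA2, LHCA3 and LHCA4 fell at 480 min in WT and LHCA1 did not pass. LHCA2 (AT3G61470) had the largest change, from 1.78, 1.14 and 1.63 CPM to 0.561, 0.558 and 0.962 CPM with CIF2 (-1.09 ± 0.32), on 16, 16 and 33 counts in the treated libraries. LHCA4, the highest LHCI gene per kb, stood at 13, 12.4 and 18.4 CPM without and 10.8, 9.14 and 11.4 CPM with CIF2 (-0.48 ± 0.15), with no overlap. LHCA1 (AT3G54890) stood at 2.72, 2.74 and 2.84 CPM without and 2.53, 2.06 and 2.13 CPM with CIF2 (-0.31 ± 0.17). It had the smallest change of the LHCI genes and was lower in each batch.

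In photosystem I, PSAE1 (AT4G28750), a subunit on the stromal side, had the largest change at 480 min, from 2.08, 2.54 and 3.05 CPM without to 1.26, 0.803 and 1.55 CPM with CIF2 (-1.07 ± 0.21). PSAD1, the stromal subunit that docks ferredoxin, stood at 9.72, 9.04 and 13.5 CPM without and 6.24, 4.08 and 5.69 CPM with CIF2 (-1.02 ± 0.18). PSAK (AT1G30380), the highest photosystem I gene per kb, stood at 17, 14.4 and 16.6 CPM without and 10.3, 10.1 and 10.5 CPM with CIF2 at 120 min (-0.63 ± 0.11), and its change at 480 min was -0.43 ± 0.11. The groups of these genes did not overlap at the times given. PSAO (-0.97 ± 0.17), PSAG (-0.82 ± 0.23), PSAN (-0.65 ± 0.17), PSAE2 (-0.60 ± 0.18) and PSAF (-0.42 ± 0.12), the last a subunit that docks plastocyanin, fell too. PSAD2, the minor PSAD copy, was at 0.504, 0.47 and 0.496 CPM without and 0.491, 0.593 and 0.933 CPM with CIF2, with overlapping groups and a log2 fold change of 0.47 ± 0.32.

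In photosystem II, PSBW (AT2G30570), a small membrane subunit, had the largest change at 480 min, from 4.44, 3.91 and 4.89 CPM without to 2.42, 1.71 and 1.92 CPM with CIF2 (-1.13 ± 0.16). At 120 min its change of -0.23 ± 0.16 did not pass. PSBS (AT1G44575), which is needed for the dissipation of excess light energy as heat, stood at 17.2, 19.1 and 21.6 CPM without and 10.8, 11 and 9.97 CPM with CIF2 at 480 min (-0.87 ± 0.15), and its change at 120 min was -0.91 ± 0.18. PSBR stood at 52.9, 42.8 and 47.9 CPM without and 22.6, 25.6 and 32.3 CPM with CIF2 at 120 min (-0.83 ± 0.13). At 480 min it stood at 67.8, 77.6 and 87.8 CPM without and 64.1, 44.2 and 53.4 CPM with CIF2 (-0.53 ± 0.13). In all of these the treated libraries lay below the untreated ones.

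The genes of the oxygen-evolving complex all had negative log2 fold changes at 480 min in WT, but only some passed. They were not tested against each other. PSBO1 (-0.56 ± 0.11) and PSBP1 (-0.71 ± 0.14) fell at 480 min in WT, while PSBQ1 at -0.49 ± 0.17, PSBQ2 at -0.43 ± 0.16 and PSBO2 at -0.31 ± 0.17 did not pass. PSBO2 (AT3G50820), the smallest change of the class, stood at 8.37, 12.8 and 9.54 CPM without and 12.5, 7.19 and 5.95 CPM with CIF2.

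With 1 batch left out, 0 to 2 genes passed in WT at 30 min (LHCB2.2, higher, without batch 1, none without batch 2, and LHCB1.5 and LHCB4.2, lower, without batch 3), 9 to 16 at 120 min (9 without batch 1 and 9 without batch 2) and 13 to 20 at 480 min (13 without batch 2 and 14 without batch 3). The median log2 fold change then lay between -0.55 and -0.38 at 120 min and between -0.74 and -0.41 at 480 min.

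**Figure D2:**
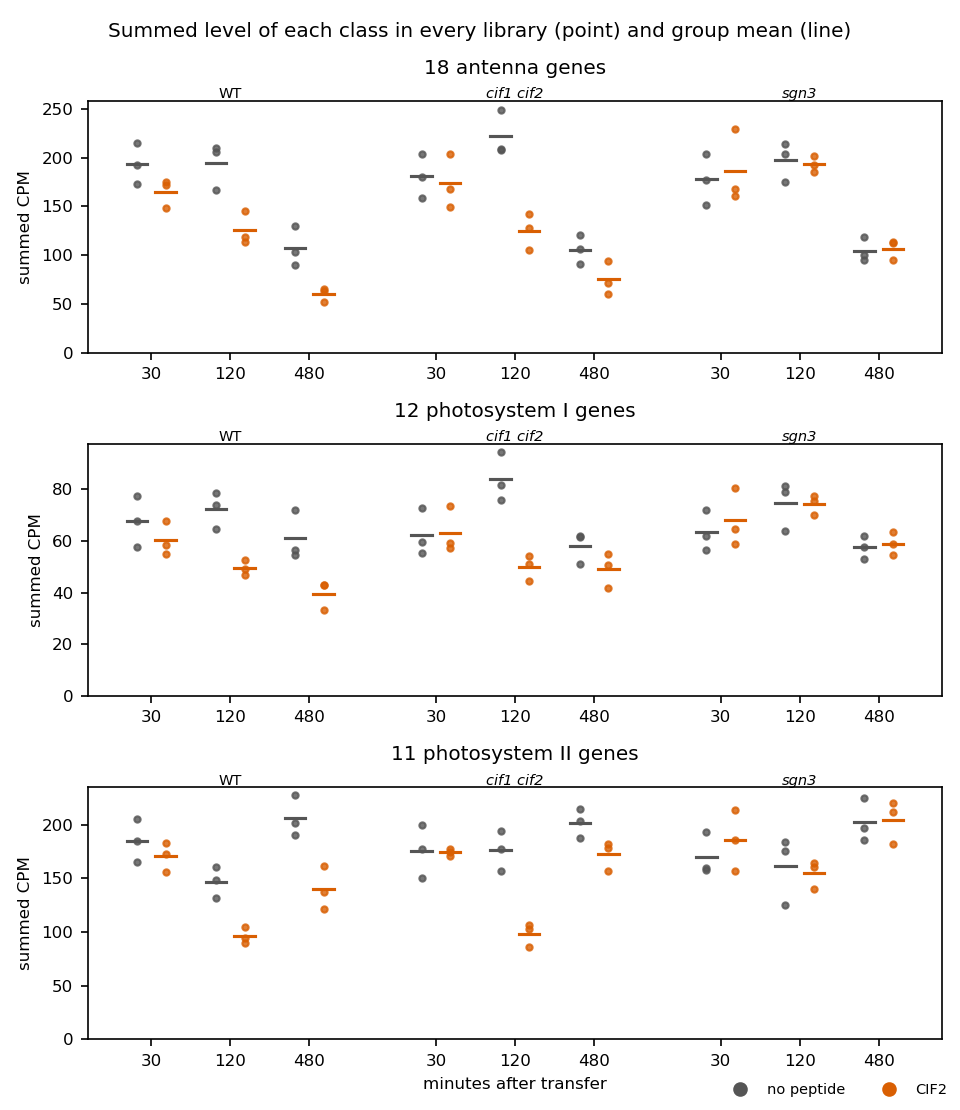
Summed CPM (vertical axis) of the 18 antenna, 12 photosystem I and 11 photosystem II genes (panels) in each of the 54 libraries (points, grey without peptide and orange with CIF2) by minutes after transfer and plant line; short lines are means of 3 libraries. The orange points lie below the grey ones at 120 and 480 min in WT and at 120 min in cif1 cif2, and the colours overlap in sgn3.

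In cif1 cif2, 28 of the 39 genes fell with CIF2 at 120 min and 10 at 480 min. The 28 genes include all 17 that fell in WT at 120 min. The 10 genes of 480 min were all among the 28, and 8 of them were also called in WT at 480 min, out of 23 there. Over all genes 6.23% were called lower at 120 min and 3.92% at 480 min, and 7.44% and 6.96% higher. The median log2 fold change was -0.72 at 120 min and -0.36 at 480 min. At least 2-fold lower were 5 genes at 120 min (0.33% of all genes) and 2 at 480 min (0.356% of all genes). By class, 9 of 17 antenna, 10 of 11 photosystem I and 9 of 11 photosystem II genes fell at 120 min, and 5, 3 and 2 at 480 min. With 1 batch left out, 16 to 27 genes passed at 120 min (18 without batch 1 and 16 without batch 2) and 3 to 9 at 480 min (4 without batch 1 and 3 without batch 2).

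PSBO1 had the smallest P of the members for CIF2, at 120 min in cif1 cif2. It stood at 41, 35.1 and 31.7 CPM without and 21.6, 16.5 and 19.1 CPM with CIF2 (-0.92 ± 0.11, adjusted P = 5.43e-08, edgeR), with no overlap. LHCB1.5 stood at 89.4, 77.5 and 81.8 CPM without and 35.9, 29.4 and 43.4 CPM with CIF2 at that time (-1.21 ± 0.16). PSAG (AT1G55670), a membrane subunit of photosystem I, had the largest fall of the 39 genes there (-1.34 ± 0.26). PSBR stood at 58.7, 64.1 and 52.8 CPM without and 29, 28.1 and 31.6 CPM with CIF2 (-0.99 ± 0.14), all treated libraries again lying below the untreated ones.

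At 480 min in cif1 cif2, LHCB1.3 went from 8.15, 5.4 and 7.02 CPM to 3.0, 2.06 and 2.63 CPM (-1.42 ± 0.27), the largest fall at that time, and LHCB1.5 (-1.05 ± 0.17) and PSBS (-0.78 ± 0.15) fell as well. PSBR, at 74.8, 76.7 and 84.8 CPM without and 69.2, 69.4 and 76.4 CPM with CIF2, changed by -0.14 ± 0.13 and did not pass, nor did PSAF (-0.02 ± 0.12), PSAK (-0.10 ± 0.11), PSBO1 (-0.19 ± 0.11) and LHCA3 (-0.19 ± 0.19). LHCB1.5, LHCB3, LHCB4.2, PSAD1 and PSBS were the 5 genes that fell in both lines at 120 and at 480 min. At the other extreme, 11 of the 39 genes were not called lower in either line at these times. They were LHCA1, LHCB1.1, LHCB1.2, LHCB2.1, LHCB2.2, LHCB2.3, LHCB4.1, LHCB4.3, PSAD2, PSBQ2 and PSBTN. LHCB1.1, LHCB1.2, LHCB2.1 and LHCB2.2 had 0 counts in some libraries, so a fall in them was mostly not detectable.

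The CIF2 change of cif1 cif2 was tested against that of WT, and no member passed at 30, 120 or 480 min (0.0153%, 0.29% and 0.00508% of all genes did in edgeR). At an unadjusted P under 0.05 there were 0, 2 and 13 of the 39 members, beside 1132, 1082 and 576 of all 19668 genes. DESeq2 and limma called none of the members. The median difference, cif1 cif2 minus WT, was 0.13, -0.21 and 0.29 on the log2 scale, beside 0.0025, -0.0024 and -0.0014 over all genes. The lower count of calls in cif1 cif2 at 480 min is therefore not shown to differ from WT.

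A few members were higher with CIF2 in cif1 cif2. LHCB2.3, the main LHCB2 copy of these roots, rose at 120 min from 0.863, 1.39 and 1.12 CPM to 1.55, 1.95 and 2.21 CPM (0.74 ± 0.24). In WT at 120 min its change was 0.66 ± 0.23 and did not pass. LHCB2.3 is overlapped along 595 bases by AT3G27700 on the other strand. LHCB4.3 (AT2G40100), a CP29 gene, rose at 480 min from 1.2, 0.936 and 0.877 CPM to 1.51, 1.2 and 2.14 CPM (0.67 ± 0.23). LHCB4.2, another CP29 gene, fell in the same libraries (-0.61 ± 0.18).

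The 3 members called higher in cif1 cif2 at 30 min, LHCA2, LHCB1.1 and LHCB2.2, rest on 1 library of batch 3. LHCB1.1 had 1, 2 and 44 counts with CIF2 and 2, 0 and 3 without. LHCB2.2 (AT2G05070), which had the largest positive log2 fold change of LHCII in WT at 480 min on 0, 0 and 1 counts with and 0, 0 and 0 without CIF2, had 0, 0 and 29 counts with CIF2 and 0, 0 and 0 without at 30 min in cif1 cif2. LHCA2 stood at 2.16, 1.73 and 3.8 CPM with and 1.79, 1.31 and 1.17 CPM without CIF2. In that batch 3 library the rarely read LHCB1.1, LHCB1.2, LHCB1.4, LHCB2.1 and LHCB2.2 summed to 170 counts, and in the batch 3 library of WT with CIF2 for 30 min to 112 counts, against at most 82 in each of the other libraries. Without both libraries, an alternative chosen after seeing the data, no member passed at 30 min in cif1 cif2 or in WT. Without batch 2 none passed in cif1 cif2 either, and without batch 3 LHCA2 did not pass, LHCB1.1 and LHCB2.2 were too low to be tested, and LHCB1.5 was called lower. Over all genes at 30 min in cif1 cif2, 2.93% were called lower and 8.68% higher.

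In sgn3, no member passed for CIF2 at any time. In edgeR the members with an unadjusted P under 0.05 also numbered 0 at 30, 120 and 480 min. Among the 19668 genes there were 1401, 578 and 1017 such genes. DESeq2 and limma called none of the members. Over all genes, 0.0305% passed at 30 min and 0% at 120 and 480 min. The median log2 fold change of the 39 genes was 0.07, -0.04 and -0.014. LHCB1.5 stood at 22.6, 25.3 and 38.2 CPM without and 31.6, 23.4 and 34.2 CPM with CIF2 at 480 min (0.05 ± 0.16). PSBS stood at 17, 19.9 and 17.5 CPM without and 19.7, 19 and 17.5 CPM with CIF2 (0.04 ± 0.15). In both genes the groups overlapped.

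**Figure D3:**
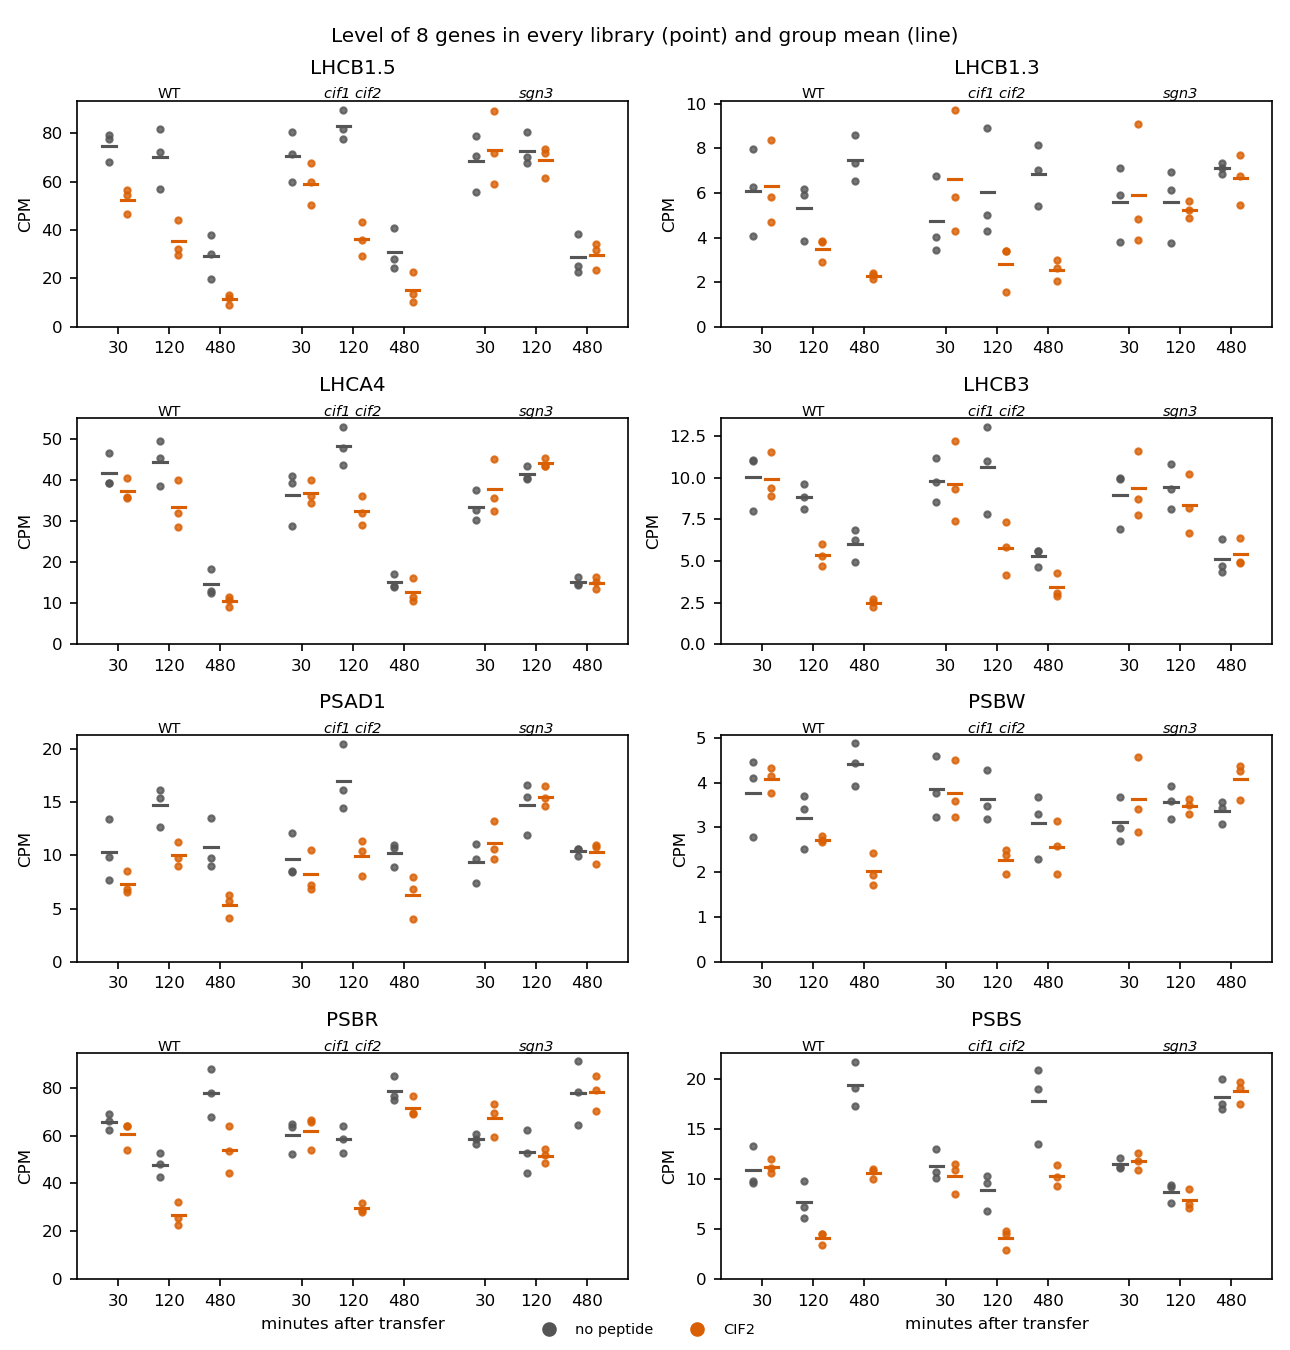
CPM (vertical axes, each from 0) of 8 genes (panels) in each of the 54 libraries (points, grey without peptide and orange with CIF2) by minutes after transfer and plant line; short lines are means of 3 libraries. The orange points of LHCB1.5 and LHCB3 at 480 min lie below the grey ones in WT and cif1 cif2 and among them in sgn3, and untreated LHCA4 and LHCB1.5 are lower at 480 than at 30 min in each line.

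The CIF2 change of sgn3 was also tested against that of WT. None of the members passed at 30 min, 6 passed at 120 min and 15 at 480 min, in each case with the change in sgn3 above that in WT. Over all genes, 0.402%, 0.834% and 0.946% passed in that direction at 30, 120 and 480 min. The 15 genes of 480 min were 7 antenna, 4 photosystem I and 4 photosystem II genes. The median difference over the 39 genes was 0.56 on the log2 scale at 480 min, beside 0.014 over all genes. These tests share the WT libraries with the comparison of CIF2 in WT.

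PSBW had the smallest P of these differences (1.4 ± 0.22, adjusted P = 1.2e-05, edgeR). In sgn3 at 480 min it stood at 3.43, 3.56 and 3.08 CPM without and 4.25, 4.37 and 3.62 CPM with CIF2. There the treated libraries lay above the untreated ones, the reverse of WT, but the change within sgn3 did not pass. No photosystem II gene rose by more than 0.27 on the log2 scale with CIF2 in sgn3 at 480 min. None of them had an unadjusted P under 0.05 there in edgeR. LHCB1.3 (1.58 ± 0.36), LHCB1.5 (1.4 ± 0.24) and LHCB3 (1.34 ± 0.22) had differences of sgn3 minus WT of a size like that of PSBW. With 1 batch left out, 0 to 4 genes passed at 120 min (0 without batch 1 and 3 without batch 2) and 5 to 8 at 480 min (5, 8 and 6 without batches 1, 2 and 3).

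Without peptide, no member differed between the mutants and WT by the test. None passed for cif1 cif2 against WT at 30, 120 or 480 min, where 0.681%, 0.737% and 0.183% of all genes did, and none for sgn3 against WT, where 0.229%, 0.0864% and 0.0915% did. In edgeR 0, 7 and 1 members had an unadjusted P under 0.05 for cif1 cif2, beside 2261, 3682 and 2396 of the 19668 genes. For sgn3 4, 1 and 1 of the 39 members did, beside 2652, 969 and 2015 genes. DESeq2 and limma called none of the members. PSBW stood at 3.69, 2.3 and 3.31 CPM in cif1 cif2 and at 4.44, 3.91 and 4.89 CPM in WT at 480 min (-0.52 ± 0.15, adjusted P = 0.163, edgeR), the smallest P of these comparisons.

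Time after transfer was compared in the untreated roots, where time after transfer and time of day cannot be told apart. At 480 against 30 min, more antenna genes fell than rose and more photosystem II genes rose than fell. Of the 17 antenna genes, 8, 8 and 10 fell in WT, cif1 cif2 and sgn3, and none rose. These counts hold genes with few reads: LHCB2.1 in WT, and LHCB1.1, LHCB1.2 and LHCB2.1 in sgn3. LHCB2.1 had 21, 11 and 19 counts at 30 min and 0, 3 and 3 at 480 min in sgn3, and LHCB1.1 8, 3 and 21 and 2, 1 and 3. The 5 rarely read LHCB genes summed to 47, 23 and 82 counts in the untreated sgn3 libraries of 30 min, against 3, 16 and 12 at 480 min. Of the 11 photosystem II genes, 5, 4 and 5 rose and 1 fell in each line. Of the 11 photosystem I genes, 2, 1 and 1 fell and 1 rose, in WT. The background is high here: 22.8%, 16% and 18% of all genes were called lower in WT, cif1 cif2 and sgn3 and 21.7%, 13.9% and 14.9% higher. The 39 genes together were not far from it, at 28.2%, 25.6% and 30.8% lower and 15.4%, 10.3% and 12.8% higher. The median log2 fold change was -0.80, -0.68 and -0.68 for LHCI and 0.24, 0.38 and 0.34 for photosystem II. Without batch 1 and without batch 2, 10 and 11 members passed in WT and 10 and 11 in sgn3, against 17 in each with all batches.

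LHCA4 (chromosome 3, 17493343 to 17495033, minus strand, 4 exons) had the smallest P for time. It stood at 46.5, 39.2 and 39.2 CPM at 30 min and 13, 12.4 and 18.4 CPM at 480 min in untreated WT (-1.51 ± 0.14, adjusted P = 1.15e-11, edgeR), with no overlap, and fell by 1.27 and 1.15 on the log2 scale in cif1 cif2 and sgn3. LHCB1.5 fell by 1.38, 1.22 and 1.26 in WT, cif1 cif2 and sgn3, whereas its paralog LHCB1.3 changed by 0.32, 0.54 and 0.38 and did not pass. LHCB1.3 and LHCB1.5 thus both fell with CIF2 at 480 min in WT and cif1 cif2, and of them only LHCB1.5 fell with time. LHCA1, LHCB2.3, LHCB3, LHCB4.3 and PSAO fell in each line too, with LHCB2.3 at -1.15, -2.07 and -1.10. PSBS went the other way, from 9.75, 9.59 and 13.3 CPM to 17.2, 19.1 and 21.6 CPM in WT (0.82, and 0.66 and 0.67 in cif1 cif2 and sgn3). PSBQ1 (0.69, 0.71 and 0.69) rose in each line while PSBQ2, another gene for the same subunit, fell (-0.53, -0.54 and -0.43).

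**Figure D4:**
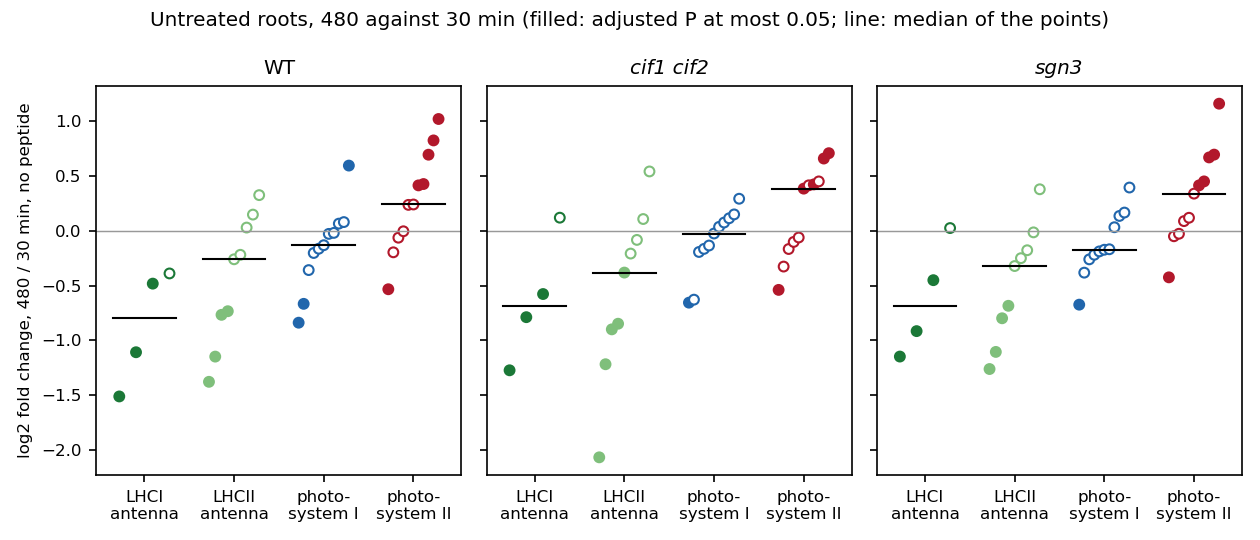
Log2 fold change of untreated roots at 480 against 30 min (vertical axis) for 35 genes (points) by class (horizontal axis) in WT, cif1 cif2 and sgn3 (panels); filled points have an adjusted P of at most 0.05, lines are medians of the points, and LHCB1.1, LHCB1.2, LHCB2.1 and LHCB2.2 are not drawn. The LHCI points lie mostly below 0, and the medians of photosystem II lie above 0 in each panel.

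At 120 against 30 min the changes were smaller and differed in count between the lines. In WT 5 members fell and 2 rose (12.8% and 5.13% of the 39), beside 16.8% and 13.5% of all genes. The 5 that fell were photosystem II genes (PSBO1, PSBO2, PSBQ2, PSBR and PSBS). In cif1 cif2 1 fell and 11 rose (2.56% and 28.2%, beside 16% and 16% of all genes). In sgn3 1 fell and 3 rose (2.56% and 7.69%, beside 15.1% and 12.7% of all genes). The members were thus called less often than all genes in WT and sgn3. In cif1 cif2 they were called lower less often and higher more often. PSAD1 (0.53, 0.81 and 0.65) and LHCB4.2 (0.67, 1.03 and 0.69) rose in each line, and PSBO2 fell in each (-0.91, -0.47 and -0.54). Without batch 1 and without batch 2, 6 and 4 members passed in cif1 cif2 in place of 12, and without batch 3 there were 7 in sgn3 in place of 4. The difference between the lines in these time courses was not tested.

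The 250 bases before each gene's start were searched on both strands for 4 motifs of light-regulated plant promoters: the G-box CACGTG, the I-box GATAAG, the motif CCAATC of GLK factors and the CCA1-binding site AAAAATCT. CCAATC was found before 10 of the 18 antenna genes (55.6%), 0 of the 12 photosystem I genes and 1 of the 11 photosystem II genes (9.09%), and before 10.2% of all 27443 nuclear protein-coding genes. The G-box was found before 22% of the 41 genes and 6.49% of all, the I-box before 22% and 12.3%, and the CCA1-binding site before 12.2% and 6.69%. The promoters shown here, with motif matches on either strand in capitals, are those of LHCB1.5 and LHCB1.3, which had the largest falls in WT, of LHCA4, which had the smallest P for time, of PSAD1, a photosystem I gene that fell in both lines, and of LHCB2.3, which rose in cif1 cif2. They lie at chr2:14523569-14523818 (minus strand), chr1:10477635-10477884 (plus strand), chr3:17495034-17495283 (minus strand), chr4:1230165-1230414 (minus strand) and chr3:10255656-10255905 (plus strand) of TAIR10.1.

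LHCB1.5: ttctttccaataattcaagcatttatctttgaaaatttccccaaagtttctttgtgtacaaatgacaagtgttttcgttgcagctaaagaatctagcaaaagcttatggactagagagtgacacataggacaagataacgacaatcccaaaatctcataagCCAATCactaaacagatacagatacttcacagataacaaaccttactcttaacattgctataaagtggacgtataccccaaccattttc
LHCB1.3: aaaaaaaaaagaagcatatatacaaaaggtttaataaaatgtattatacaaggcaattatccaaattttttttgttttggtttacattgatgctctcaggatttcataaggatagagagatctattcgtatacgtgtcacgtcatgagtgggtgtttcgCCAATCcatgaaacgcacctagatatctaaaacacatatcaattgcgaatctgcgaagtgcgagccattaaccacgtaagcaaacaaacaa
LHCA4: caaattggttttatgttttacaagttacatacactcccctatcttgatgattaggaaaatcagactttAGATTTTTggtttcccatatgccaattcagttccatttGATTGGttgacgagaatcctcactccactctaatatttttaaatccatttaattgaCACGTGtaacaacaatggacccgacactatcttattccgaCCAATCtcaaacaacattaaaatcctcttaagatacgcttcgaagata
PSAD1: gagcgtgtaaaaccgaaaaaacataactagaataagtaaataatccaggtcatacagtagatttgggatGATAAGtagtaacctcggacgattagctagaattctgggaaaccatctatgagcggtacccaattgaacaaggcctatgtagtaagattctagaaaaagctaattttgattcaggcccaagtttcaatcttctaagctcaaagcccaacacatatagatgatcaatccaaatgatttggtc
LHCB2.3: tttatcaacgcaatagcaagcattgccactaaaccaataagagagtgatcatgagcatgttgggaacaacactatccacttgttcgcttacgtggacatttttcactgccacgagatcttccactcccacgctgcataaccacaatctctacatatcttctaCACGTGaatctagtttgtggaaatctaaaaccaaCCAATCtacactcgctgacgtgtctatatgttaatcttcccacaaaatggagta

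CCAATC was found before LHCB1.5, LHCB1.3 and LHCA4, which fell with CIF2, and before LHCB2.3, which did not. LHCB3 and PSBW, which fell, had none of the 4 motifs in this window. A match is a description of letters and not a binding site.

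Other genes of photosynthesis were counted in lists chosen with earlier results of these data known. Of 11 chlorophyll synthesis genes tested, 3, 4 and 4 fell in WT after 30, 120 and 480 min of CIF2, as did 3, 3 and 2 in cif1 cif2, and none rose. Over all genes, 2.01%, 4.28% and 3.23% were called lower in WT and 2.93%, 6.23% and 3.92% in cif1 cif2 at these times. CRD1 (AT3G56940), of the cyclase that forms the fifth ring of chlorophyll, changed by -0.76 ± 0.12 in WT and -1.05 ± 0.12 in cif1 cif2 at 120 min, and CHLH (AT5G13630), a magnesium chelatase subunit, by -0.56 ± 0.10 and -0.74 ± 0.10. GUN4 (AT3G59400), an activator of that chelatase that was singled out after its values were seen, fell in both lines at all 3 times and by 1.69 in WT at 120 min.

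Of 8 electron transfer and ATP synthase genes tested, 0, 2 and 5 fell in WT and 0, 5 and 1 in cif1 cif2, and none rose, beside the same shares of all genes. ATPC1 (AT4G04640), a subunit of the chloroplast ATP synthase, fell by 0.76 in cif1 cif2 at 120 min, and FNR1 (AT5G66190), a ferredoxin-NADP reductase, by 0.62. Of 7 carbon fixation genes tested, 0, 1 and 2 fell in WT and 0, 3 and 2 in cif1 cif2, again beside those shares. RCA (AT2G39730), the Rubisco activase, changed by -0.79 ± 0.14 and SBPASE (AT3G55800), a Calvin cycle enzyme, by -1.14 ± 0.26 in WT at 480 min. RBCS3B, named after its values were seen, was the 1 gene of these lists called higher, in cif1 cif2 at 30 min, the comparison that holds the batch 3 library described above.

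Of 5 regulators of greening tested, GLK2 (AT5G44190), a GLK transcription factor, fell in WT at 30 min (-0.52 ± 0.13) and 120 min (-0.54 ± 0.12), and likewise in cif1 cif2 at 30 min (-0.46 ± 0.13) and 120 min (-0.40 ± 0.12). At 480 min its changes of -0.30 ± 0.13 and -0.33 ± 0.13 did not pass. PIF1 fell in cif1 cif2 at 120 min. Of 4 minor antenna and early light-induced genes tested, ELIP1 (AT3G22840) fell in both lines at 120 and 480 min and LHCA5 (AT1G45474) in cif1 cif2 at 120 min. The shares of all genes called lower at 30, 120 and 480 min were 2.01%, 4.28% and 3.23% in WT. In cif1 cif2 these shares were 2.93%, 6.23% and 3.92%. In sgn3 no gene of the chlorophyll synthesis, electron transfer, carbon fixation, greening or minor antenna lists passed at any time.

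Of the shoot and epidermal markers, PDF1 and CER1 were tested, and CER1 was lower with CIF2 in WT at 120 min (-0.48 ± 0.15) and in cif1 cif2 at 480 min (-0.56 ± 0.15). CER1 and PDF1 averaged 6.68 and 3.88 CPM over all libraries, and each of the other markers at most 0.379 CPM. The sum of the 12 markers therefore mostly follows CER1 and PDF1 and cannot show changes in the others. The summed level of the 12 markers was 9.54 to 14.7 CPM without and 11.2 to 15.3 CPM with CIF2 in WT at 480 min, 7.53 to 9.97 and 8.04 to 10.6 CPM in WT at 120 min, 10.2 to 12.7 and 7.96 to 11.8 CPM in cif1 cif2 at 120 min, and 9.36 to 20.3 and 8.32 to 13.9 CPM in cif1 cif2 at 480 min. Of 6 root markers, MYB36 and CASP1, a regulator and a scaffold protein of the Casparian strip, were both higher with CIF2 in WT at 480 min (0.63 ± 0.14 and 0.60 ± 0.12) and in cif1 cif2 at 120 and 480 min. In WT at 30 and 120 min and in cif1 cif2 at 30 min only MYB36 passed. The part of these markers in the changes of the photosystem and antenna genes was not tested.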

How the data were processed

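Messenger RNA of whole roots was sequenced after TruSeq Stranded mRNA preparation. The authors trimmed reads with Cutadapt (version 1.8), aligned them to TAIR10 with STAR (version 2.5.3a) and counted them per gene with htseq-count (HTSeq version 0.9.1); the strand setting is not given in the sources used here. The deposited files hold these whole-number counts for 34262 genes. The 5 lines per library that name no gene held 4.72% to 5.15% of the counts and were left out. The 19668 genes that reached 1 CPM in 1 or more libraries entered edgeR 4.0.16 (R 4.3.3): TMM scaling, 1 quasi-likelihood fit of 54 libraries with 18 groups and batch, and Benjamini-Hochberg adjustment within each of 27 comparisons. The batch is named in the sample titles and so pairs the libraries; deviations from group means correlated within batches by 0.27 on average over all genes and by 0.165 over the members. DESeq2 1.42.0, limma 3.58.1, other filters and scalings, a fit without batch and fits without each batch were alternatives. The fit was also run on simulated counts with no batch effect, a run that does not bear on batch and is not used here. Members and lists were chosen with earlier results of these data known. Values per library are given for, in each class, the gene highest per kb and those with the most negative and the most positive or least negative log2 fold change with CIF2 at 480 min in WT, for the smallest P of each family of comparisons, and for further genes that the text sets beside them. Of the other lists, the pair with the smallest P is named. Sequences were read from the RefSeq TAIR10.1 assembly.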

Additional observations from a re-analysis of the deposited data

Results flagged for a closer look

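The change with CIF2 in sgn3 differed from that in WT, by the test of the difference itself (edgeR, adjusted P of at most 0.05), for 6 members at 120 min and 15 at 480 min. Each value here is the log2 change in sgn3 minus that in WT. At 120 min it was 0.901 for LHCB1.5, 0.994 for LHCB4.2, 0.844 for PSAN, 0.923 for PSAO, 0.624 for PSBO1 and 0.797 for PSBR. In the antenna at 480 min it was 0.996 for LHCA3, 1.58 for LHCB1.3, 1.4 for LHCB1.5, 1.34 for LHCB3, 0.959 for LHCB4.2, 0.73 for LHCB5 and 0.595 for LHCB6. In photosystem I at 480 min it was 0.993 for PSAD1, 1.03 for PSAE1, 0.556 for PSAK and 0.942 for PSAO. In photosystem II at 480 min it was 0.524 for PSBO1, 0.679 for PSBP1, 0.912 for PSBS and 1.4 for PSBW. LHCB1.5, LHCB4.2, PSAO and PSBO1 passed at both times.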

How the results depend on the processing

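The number of members that passed kept within 1.5 times its value in all 27 comparisons with DESeq2, with DESeq2 size factors and with no filter on low counts. No member call changed direction under an alternative that tested the gene. The values that did not pass were not checked in this way. Of 176 member calls, 54 were lost without batch as a replicate block, 8 with limma and 5 with DESeq2. Leaving out batches 1 and 2 in turn lost 73 and 81. Without batch 3, 125 calls were kept and 45 lost, and the rest were of genes too low to be tested there. The cause was not tested, and the fits without a batch also hold fewer libraries. For CIF2 in WT at 30 min, the 1 member became 0 without the replicate block, 2 when only the libraries of the comparison were fitted, 0 without the 2 libraries of batch 3 described above, and 0 to 2 with 1 batch left out, where LHCB1.5 was called only without batch 3. At 120 min 17 became 11 without the block and 9 to 16 with a batch left out, and at 480 min 23 became 13 to 20. In cif1 cif2 at 30 min the 3 became 0 with limma, 1 with at least 1 CPM in 3 libraries, 1 without the block, 0 without the 2 libraries, and 0 to 3 with a batch left out. In cif1 cif2 at 120 min 29 became 16 to 27, and at 480 min 11 became 4 without the block and 3 to 9 with a batch left out. For sgn3 minus WT, the 0 of 30 min became 2 with only the libraries of the comparison and 0 to 1 with a batch left out, the 6 of 120 min became 0 to 4, and the 15 of 480 min became 9 without the block and 5 to 8. For untreated sgn3 against WT at 30 min, 0 became 1 with only the libraries compared. For time at 120 min, WT went from 7 to 4 and cif1 cif2 from 12 to 7 without the block, sgn3 from 4 to 7 with only the libraries compared, and with a batch left out cif1 cif2 had 4 to 9 and sgn3 3 to 7. For time at 480 min, with a batch left out, WT had 10 to 14 and sgn3 10 to 13. Asking also for a log2 fold change of at least 1 left 0, 0 and 7 members for CIF2 in WT at 30, 120 and 480 min, 5 and 2 in cif1 cif2 at 120 and 480 min, 0, 1 and 0 for time at 120 min in WT, cif1 cif2 and sgn3, and 6, 3 and 7 at 480 min. Of the 6 and 15 differences of sgn3 minus WT at 120 and 480 min, 0 and 5 were of that size. Without the 3 libraries with conflicting labels, CIF2 in cif1 cif2 at 480 min has no value. Depth limits the members with few reads: LHCB1.1, LHCB1.2, LHCB2.1 and LHCB2.2 had 0 counts in some libraries, and changes in them were mostly not detectable.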
